A study of Homo sapiens with 6 samples.

Results

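ANGPTL4, the 3 PPAR genes PPARA, PPARD and PPARG, the RXR genes RXRA and RXRB, and the coactivator genes PPARGC1A and PPARGC1B were followed in BT-549, a human line of triple negative breast cancer, in adipocyte-conditioned medium (ACM) or unconditioned medium (UCM). These 8 genes were chosen as fatty acid sensing receptors with partners, coactivators and a target gene, with earlier results of these data known. They were matched by symbol among 63140 genes in the deposited tables. All 8 were found.

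PPARs are nuclear receptors that bind fatty acids and their derivatives, pair with an RXR, and activate genes from DNA elements called PPREs. The PGC-1 proteins are coactivators of these pairs and are best known in tissues that burn fat. ANGPTL4 is a secreted protein that inhibits lipoprotein lipase, and its gene is a PPAR target that also responds to hypoxia, glucocorticoids and TGF-beta. In adipocytes PPARG is the main receptor of the family, whereas PPARA is best known in liver and PPARD is found in many cell types.

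RNA was sequenced from 6 cultures of wild-type BT-549 cells in wells of a plate, 3 in ACM and 3 in UCM, each for 24 h. No other treatment is named for either group. ACM had been kept on OP9 mouse cells that were differentiating into adipocytes in a medium with insulin, oleate and albumin. The formula of UCM is not given in the sources used here. The effects of base medium, serum, oleate, insulin or other ingredients and of adipocyte secretions therefore cannot be told apart. The GEO labels give ACM at 50%, whereas the supplement of the study describes undiluted ACM for RNA-seq. All cells come from 1 line, and nothing shows that the replicates were more than parallel wells, so p-values measure only the spread between these samples.

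Libraries held between 17135288 and 21053257 expected counts, and replicate 1 of both groups stood apart from the other replicates on the second principal component. The tumour type was checked first: the hormone receptor genes ESR1 and PGR had 0 counts in every library, while ERBB2, a growth factor receptor gene, was present (27.5 ± 1.05 TPM in ACM, 28.8 ± 3.50 TPM in UCM, SD, n = 3). The labels call the cells epithelial, but EPCAM had at most 2 counts and KRT8 at most 7 counts in any library, while the mesenchymal gene VIM was between 2533 and 3151 TPM. Of 10 adipocyte marker genes, 5 (ADIPOQ, LEP, CIDEC, RETN and PCK1) were at 0 in every library, and the summed CPM of the list was 5.52 to 6.25 in ACM and 5.64 to 7.85 in UCM.

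ANGPTL4 (ENSG00000167772.12) lies at chr19:8363289-8374370 on the plus strand of GRCh38, and its canonical transcript starts at 8364155 and has 7 exons. The 250 bases before that start, read from the RefSeq promoter table of GRCh38.p14, are shown because ANGPTL4 is the gene of the 8 that passed the test of ACM against UCM. They lie at chr19:8363905-8364154, and the capitals mark ACGTG, the core of the hypoxia response element, as it reads on the other strand. The second sequence, at chr19:8370993-8371085 on the minus strand, is shown because it holds the closest match in the gene to a DR1, the element of PPAR-RXR pairs, taken as 2 copies of AGGTCA separated by 1 base. Its capitals mark that match, which lies in intron 4, and the stretch begins, as printed, in exon 5, whose start is at 8371056.
ANGPTL4 promoter: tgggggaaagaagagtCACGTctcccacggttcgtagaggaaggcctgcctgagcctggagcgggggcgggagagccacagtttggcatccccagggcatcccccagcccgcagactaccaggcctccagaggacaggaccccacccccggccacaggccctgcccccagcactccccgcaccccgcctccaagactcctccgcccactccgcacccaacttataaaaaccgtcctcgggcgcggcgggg
ANGPTL4 exon 5 to intron 4: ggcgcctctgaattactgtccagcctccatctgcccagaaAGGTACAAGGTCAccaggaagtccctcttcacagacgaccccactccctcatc

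No DR1 with up to 2 mismatches was found on either strand in the 300 base promoter windows of any of the 8 genes (17 windows, 250 bases before to 50 after a start), and 2.97% of all 35116 RefSeq promoter windows hold one. The hexamer AGGTCA alone was found in 3 of 6 windows of PPARG and in no window of the other 7 genes, against 13.8% of all windows. ACGTG was found in the ANGPTL4 window, in both RXRB windows, and in 1 window each of PPARG and PPARGC1A, against 21.4% of all windows. The match in intron 4 of ANGPTL4, 6878 bases from the start, has 2 mismatches, and 63.0% of protein-coding genes hold a match as close in their first 10000 bases. Such matches are descriptions of letters and carry no measurement of binding.

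ANGPTL4 rose in ACM and was the only one of the 8 genes to pass the test (adjusted p of 0.05 or less). Its level per length was 209, 321 and 189 TPM in the 3 ACM libraries and 28.6, 26.5 and 25.4 TPM in the 3 UCM libraries. Scaled counts were 222, 352 and 196 CPM in ACM and 29.7, 26.0 and 27.3 CPM in UCM. The groups were far apart, and the lowest ACM library held 6.62 times the CPM of the highest UCM library. The UCM libraries were close together, at 27.7 ± 1.84 CPM, whereas the ACM libraries spread to 257 ± 83.2 CPM (SD, n = 3) with replicate 2 the highest.

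The log2 FC of ANGPTL4, ACM against UCM, was 3.21 with a standard error of 0.24 (edgeR quasi-likelihood test, Benjamini-Hochberg adjusted p = 0.0029). That is a 9.27-fold increase, with a 95% interval of 6.16-fold to 14.0-fold. In the table of all 14451 genes tested, 3.35% passed at the same threshold as higher and 2.21% as lower, and the median log2 FC was -0.011. Among the 484 genes called higher, ANGPTL4 ranked 7 by log2 FC and 11 by the gain in mean TPM, which was 213. The gene moved from above 61.5% to 64.2% of tested genes by TPM in the UCM libraries to above 93.9% to 96.9% in the ACM libraries. Without ACM replicate 2 the log2 FC was 2.92 (adjusted p = 3.4e-06), and with replicate 1 of both groups left out, an alternative chosen after seeing the data, it was 3.37 but the adjusted p was 0.054. In bulk RNA, more cells with the transcript and more transcript per cell cannot be told apart.

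**Figure D1:**
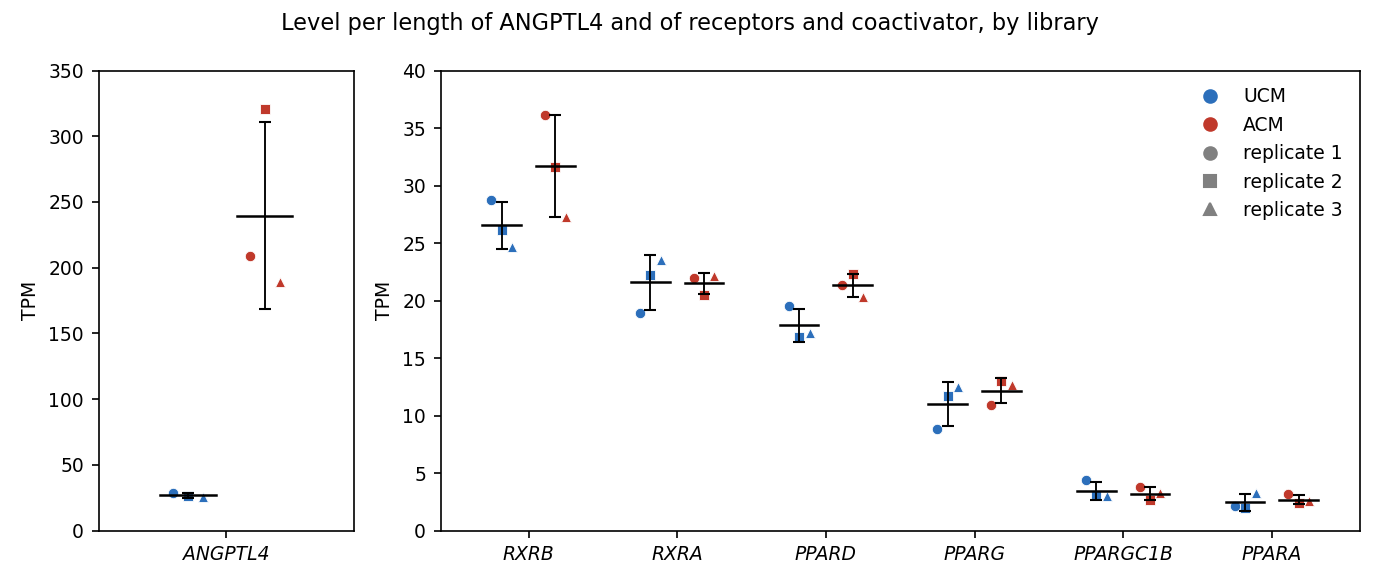
TPM of ANGPTL4 (left) and of the 6 other members with more than trace counts (right, smaller axis), with each library as a point, the mean as a bar and 1 SD as error bars, n = 3. ANGPTL4 sits between 189 and 321 TPM in ACM and between 25.4 and 28.6 in UCM, while the receptors stay below 40 TPM in both media.

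The receptors that could pair on a PPRE were all expressed except RXRG, the third RXR, which had 0 counts in every library. PPARD, at chr6:35342558-35428191, was the most abundant PPAR. It was at 21.3, 22.3 and 20.3 TPM in ACM and at 19.5, 16.9 and 17.2 TPM in UCM, so every ACM library lay above every UCM library. PPARD made up 58.9% ± 1.54 of the summed PPAR TPM in ACM and 57.1% ± 6.18 in UCM (SD, n = 3). PPARG, at chr3:12287368-12434356, followed at 33.6% ± 2.48 and 35.1% ± 5.22. PPARA, at chr22:46150521-46243755, had 7.49% ± 1.33 and 7.82% ± 1.90. The shares of the 3 receptors therefore differed between the media by less than their spread, while the summed level was 36.2 ± 1.25 TPM in ACM and 31.3 ± 1.37 TPM in UCM.

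None of the 3 PPAR genes passed the test. In CPM, PPARD was at 51.5, 54.4 and 48.0 in ACM and at 45.6, 40.7 and 40.9 in UCM, with a log2 FC of 0.27 (standard error 0.084, 95% interval 0.087 to 0.46, edgeR adjusted p = 0.086). Its groups did not overlap, but the increase was small beside that of ANGPTL4. Leaving out UCM replicate 1, the highest of its group, gave 0.34 with an adjusted p of 0.031, so its side of the threshold depended on that library. The order of the 6 libraries by CPM was the same for PPARD as for ANGPTL4, an order shared with ANGPTL4 by 111 of 13349 genes (0.832%). Such an order needs every ACM value above every UCM value, which 13.9% of all genes tested had. PPARD was nearly level in UCM replicates 2 and 3, and by TPM the 2 genes ordered these libraries differently. PPARD was at 16.9 and 17.2 TPM there, and ANGPTL4 at 26.5 and 25.4 TPM.

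PPARA was at 8.98, 10.4 and 11.03 CPM in ACM and at 6.87, 6.72 and 8.05 CPM in UCM, groups that did not overlap. Its log2 FC was 0.49 (standard error 0.15, 95% interval 0.16 to 0.82, edgeR adjusted p = 0.086). In TPM the groups did overlap, with 3.16, 2.37 and 2.57 in ACM against 2.11, 2.0 and 3.29 in UCM. The effective length of PPARA, the mean length that RSEM assigns to its transcripts in a library, was 4016, 6058 and 6213 bases in ACM and 4714, 4754 and 3511 bases in UCM. With effective lengths as offsets in DESeq2 the log2 FC fell to 0.17 (adjusted p = 0.83), and with limma on log2(TPM + 1) it was 0.11 (adjusted p = 0.81). The difference in PPARA was thus found in counts and not per length.

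**Figure D2:**
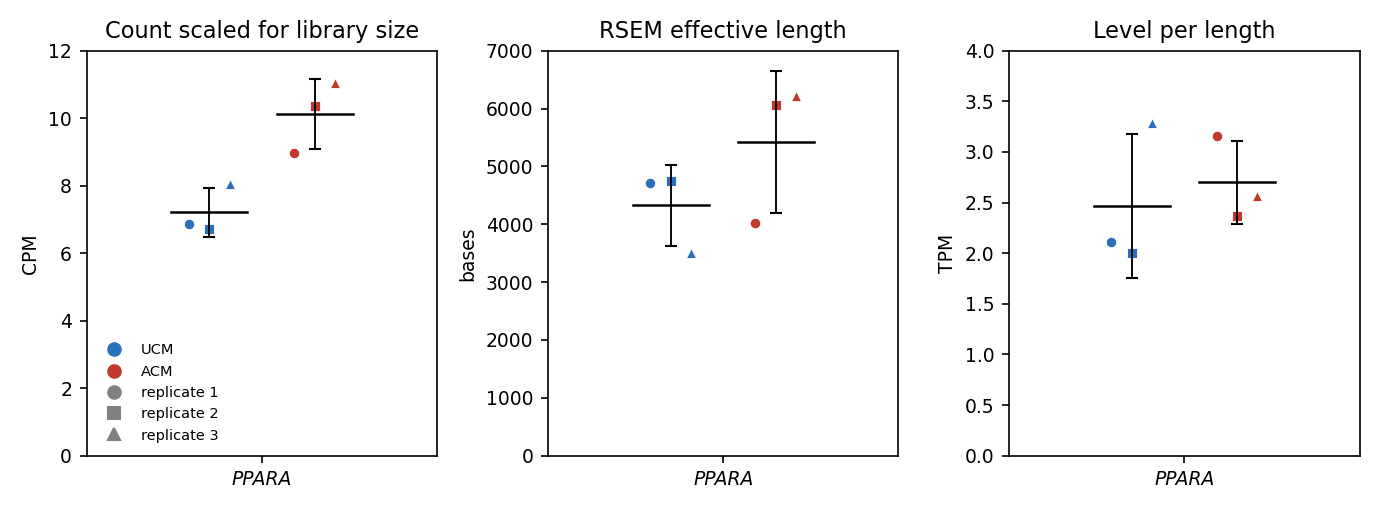
PPARA in each library as CPM (left), RSEM effective length in bases (middle) and TPM (right), with the mean as a bar and 1 SD as error bars, n = 3. The ACM and UCM points are apart in CPM, at 8.98 or more against 8.05 or less, but overlap in length and in TPM.

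PPARG, the receptor that drives fat cell formation, was at 11.2, 14.2 and 13.4 CPM in ACM and at 9.24, 11.3 and 12.2 CPM in UCM. The groups overlapped, since UCM replicate 3 lay above ACM replicate 1. Its log2 FC was 0.24 with a 95% interval of -0.087 to 0.57 (edgeR adjusted p = 0.37), which holds both no change and a 1.49-fold increase. A missed threshold does not show that its level was the same in both media.

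RXRB, at chr6:33193588-33200665, and RXRA, at chr9:134317098-134440585, encode the partners of the PPARs. RXRB was at 36.1, 31.6 and 27.3 TPM in ACM and at 28.8, 26.2 and 24.7 TPM in UCM, with overlap through ACM replicate 3. In CPM its groups did not overlap, at 48.2, 48.2 and 42.8 in ACM against 37.4, 40.1 and 37.6 in UCM. The log2 FC of RXRB was 0.28 (standard error 0.083, 95% interval 0.093 to 0.46, edgeR adjusted p = 0.080). RXRB overlaps SLC39A7, a zinc transporter gene on the other strand with 4538 to 6044 counts a library. Whether reads were counted by strand is not stated, so reads of the overlap cannot be assigned with certainty, and SLC39A7 had a log2 FC of 0.13 (edgeR adjusted p = 0.32).

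RXRA was at 21.9, 20.5 and 22.2 TPM in ACM and at 18.9, 22.3 and 23.6 TPM in UCM, so the ACM libraries lay within the range of the UCM libraries. Its log2 FC was 0.013 (95% interval -0.19 to 0.21, edgeR adjusted p = 0.95) and changed sign to -0.074 without UCM replicate 1. By TPM, RXRB made up 59.4% ± 3.71 of the 2 detected RXR genes in ACM and 55.2% ± 4.69 in UCM (SD, n = 3). The summed RXR level was 53.2 ± 4.42 TPM in ACM and 48.1 ± 0.40 TPM in UCM, above that of the summed PPARs in both media.

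Of the coactivators, PPARGC1A, at chr4:23755041-23904089, encodes PGC-1α, the form induced in muscle, liver and brown fat. It had 1 count in each ACM library and 0 in each UCM library, and all values are at or under 3 counts, so no fold was computed. PPARGC1B, at chr5:149730298-149855022, encodes PGC-1β. It was at 23.0, 16.9 and 18.3 CPM in ACM and at 26.6, 16.9 and 19.4 CPM in UCM. Replicate 1 was the highest of both groups, and the groups overlapped. The log2 FC was -0.11 (95% interval -0.53 to 0.30, edgeR adjusted p = 0.76), and without UCM replicate 1 it was 0.11.

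**Figure D3:**
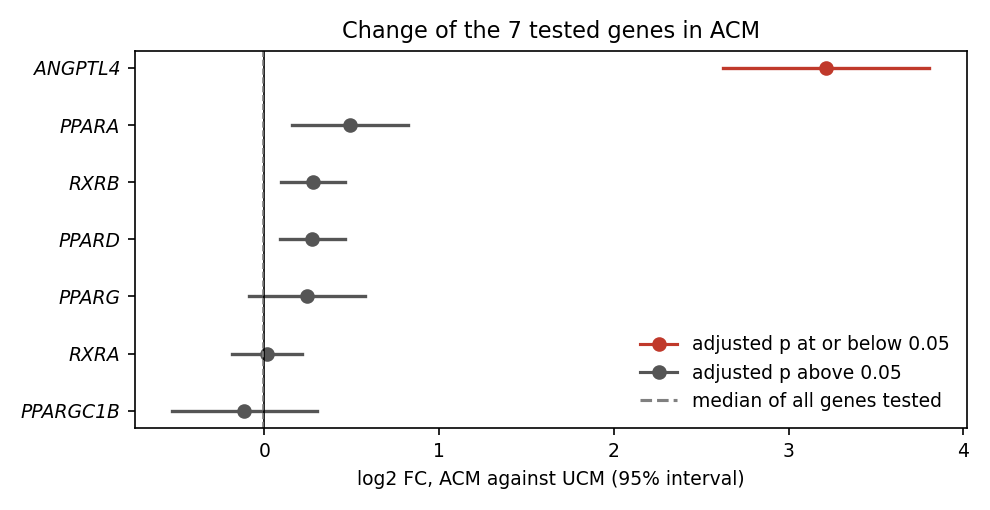
Log2 FC of the 7 tested members, ACM against UCM, from edgeR, with 95% intervals as lines, zero as a solid line and the median of all genes tested, -0.011, as a dashed line. ANGPTL4 lies at 3.21 and the other 6 between -0.11 and 0.49, with the intervals of PPARG, RXRA and PPARGC1B across zero.

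In all, 1 of 7 tested genes was called higher by edgeR (14.3%, against 3.35% of all genes). At an unadjusted p of 0.05 or less, 4 (ANGPTL4, PPARA, PPARD and RXRB) were higher and 0 were lower, where 23.3% of all genes tested passed in either direction. The same 4 had every ACM value of CPM above every UCM value, against 13.9% of all genes, none had every value below, against 15.1%, and 29.0% of all genes were apart in either direction. DESeq2 and limma also called ANGPTL4 and no other of the 7. By mean TPM, the order was ANGPTL4, RXRB, RXRA, PPARD, PPARG, PPARGC1B, PPARA and PPARGC1A in both media. In UCM the ranges of ANGPTL4 and RXRB overlapped, and their means stood at a ratio of 1.01. In ACM the same ratio was 7.56 and the ranges were apart. The ranges of RXRA and PPARD, and of PPARGC1B and PPARA, overlapped in both media.

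Of 53 further PPAR target genes on a list, 35 could be tested. Of these, 6 rose (17.1%, against 3.35% of all genes), 1 fell (2.86%, against 2.21%) and 28 did not pass, and the median log2 FC was 0.20 against -0.011 for all genes. At an unadjusted p of 0.05 or less, 13 were higher and 3 lower, where 23.3% of all genes passed in either direction. In CPM, 14 had every ACM value above every UCM value and 4 every value below (51.4% together, against 29.0%). DESeq2 called 8 higher and 1 lower, against 725 and 422 among all genes. This list and those below were typed by hand with earlier results of these data known, so their shares are descriptions only. CPT1A, which commits fatty acids to mitochondrial oxidation, was at 217, 248.7 and 230 CPM in ACM and at 131, 142 and 141 CPM in UCM. Its log2 FC was 0.75 (standard error 0.072, edgeR adjusted p = 0.0010). VLDLR, a receptor for triglyceride-rich lipoproteins, rose by 0.79 (standard error 0.11, adjusted p = 0.0040). ACAA2 and ACADVL, enzymes of mitochondrial beta-oxidation, rose by 0.68 (adjusted p = 0.0048) and 0.48 (adjusted p = 0.019). In each of these 4 genes every ACM library lay above every UCM library.

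The other called targets were named after their values had been seen. SLC25A20, the mitochondrial carnitine carrier, had a log2 FC of 0.48 (adjusted p = 0.031). PDK4, which inhibits pyruvate dehydrogenase, had 212, 929 and 328 counts in ACM against 6, 11 and 3 in UCM (log2 FC 6.22, standard error 1.00, adjusted p = 0.033). ACM replicate 2 was the highest library for PDK4, as for ANGPTL4. UCP2, a mitochondrial carrier, fell by 0.58 on the log2 scale (adjusted p = 0.044), a call lost when any library but UCM replicate 1 was left out. PLIN2, the lipid droplet coat protein, was at 161, 601 and 185 CPM in ACM and at 71.8, 82.9 and 87.7 CPM in UCM, yet its log2 FC of 1.96 had a standard error of 0.62 (adjusted p = 0.16). Its unadjusted edgeR p was 0.029, and the study, which used DESeq2, lists PLIN2 among its activated genes. Here too ACM replicate 2 stood far above the other ACM libraries. The count of targets called higher fell from 6 to 3 without UCM replicate 2 and to 3 without UCM replicate 3. Among all genes, those called higher fell from 484 to 125 and to 156 in the same fits.

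**Figure D4:**
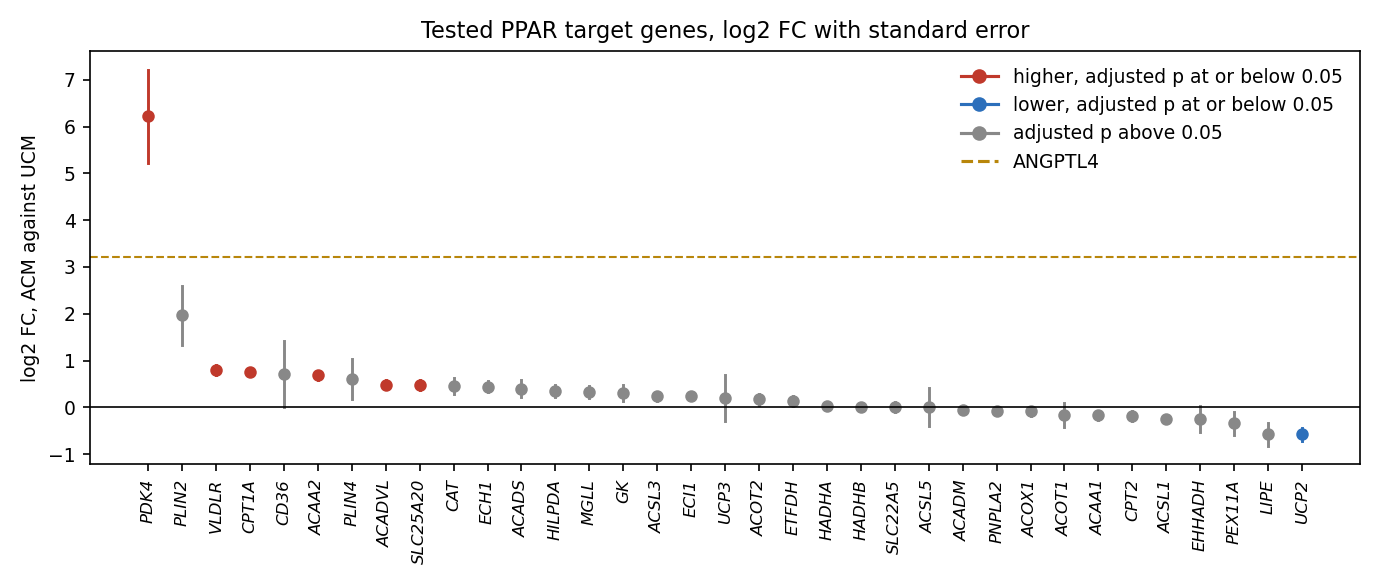
Log2 FC, ACM against UCM, of the 35 tested PPAR target genes with 1 standard error on each side, coloured by direction where the edgeR adjusted p is at or below 0.05, and ANGPTL4 as a dashed line at 3.21. PDK4 at 6.22 is the only target above ANGPTL4, and 28 genes in grey did not pass.

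Several targets best known from fat were nearly silent. Of the 18 targets not tested, 9 were at 0 in every library, among them ADIPOQ, the adipocyte hormone adiponectin. LPL, the lipase that the ANGPTL4 protein inhibits, had 2 counts in UCM replicate 1 and 0 in the other 5 libraries. No other listed ANGPTL gene exceeded 15 counts in a library. Of 20 genes for ANGPTL proteins, lipases and their processing, 6 were tested and 1 was called higher (16.7%, against 3.35% of all genes). It was LMF1, which matures lipases, at 12.3, 13.6 and 11.03 CPM in ACM and 7.96, 8.76 and 8.28 CPM in UCM (log2 FC 0.56, edgeR adjusted p = 0.040). LMF1 lost the call when any library but UCM replicate 1 was left out, and its TPM overlapped between the groups. FURIN, a protease that cleaves ANGPTL proteins, was at 16.7 ± 1.30 TPM in ACM and 16.1 ± 1.02 TPM in UCM (SD, n = 3).

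Of 16 tested coregulators of these receptors, 0 were higher and 2 lower at the adjusted p-value by edgeR (12.5%, against 2.21% of all genes). At an unadjusted p under 0.05, 1 was higher and 4 were lower, where 23.3% of all genes passed in either direction. DESeq2 called 0 as higher and 2 as lower, against 725 and 422 among all genes. LPIN1, a phosphatidate phosphatase that also coactivates PPARs, was at 18.2, 15.9 and 15.1 CPM in ACM and at 23.8, 27.8 and 28.6 CPM in UCM (log2 FC -0.70, adjusted p = 0.0089). NCOA1, a histone acetyltransferase coactivator, had a log2 FC of -0.48 (adjusted p = 0.048). Without ACM replicate 1 or 2, or without UCM replicate 2 or 3, 1 coregulator was called lower, and without UCM replicate 1 the count was 3. As higher, 1 coregulator was called without ACM replicate 1, and 2 were with replicate 1 of both groups left out. Of 9 tested genes for PGC-1 partners and targets, 2 fell (22.2%, against 2.21% of all genes) and 0 rose by edgeR. At an unadjusted p under 0.05, 2 of the 9 were higher and 3 were lower, where 23.3% of all genes passed in either direction. GABPB1, a subunit of the nuclear respiratory factor GABP, fell by 0.51 and CYCS, cytochrome c, fell by 0.29 on the log2 scale (adjusted p = 0.018 and 0.040). None of the 9 was called lower without ACM replicate 2, UCM replicate 2 or UCM replicate 3, 1 was without ACM replicate 1 and 3 were without UCM replicate 1. Of 9 tested genes for other receptors that pair with RXR, 0 passed in either direction by edgeR or DESeq2. At an unadjusted p under 0.05, 2 of these were higher and 0 lower, where 23.3% of all genes passed in either direction. Without UCM replicate 1 there was 1 called lower, while among all genes those called lower rose from 320 to 572. Of 9 genes for fatty acid and retinoid binding proteins, FABP5, which carries fatty acids to PPARD, and CRABP2 were tested and neither passed by edgeR or DESeq2. FABP5 was at 25.0, 23.5 and 26.6 CPM in ACM and at 24.4, 38.8 and 38.1 CPM in UCM (log2 FC -0.43, adjusted p = 0.17), with UCM replicate 1 at the level of ACM, and without that library 1 gene of this list was called lower.

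Other known inducers of ANGPTL4 were followed through lists of their genes. Of 14 tested hypoxia genes, 2 rose (14.3%, against 3.35%), 0 fell (also 0 at an unadjusted p under 0.05 and by DESeq2) and 9 had every ACM value of CPM above every UCM value (64.3%, against 13.9% of all genes), with a median log2 FC of 0.56 against -0.011. PDK1, a pyruvate dehydrogenase kinase, rose by 0.71 and BNIP3, a mitophagy receptor, by 0.70 (edgeR adjusted p = 0.019 and 0.042). The count of hypoxia genes called higher was 7 by DESeq2 and 7 without ACM replicate 3, 1 without ACM replicate 1 or 2, and 0 without UCM replicate 2 or 3. Among all genes, those called higher were 725 by DESeq2 and 320 without ACM replicate 3. They were 415 and 197 without ACM replicates 1 and 2, and 125 and 156 without UCM replicates 2 and 3. The glucocorticoid list of 9 tested genes held 1 called higher (11.1%, against 3.35% of all genes) and 1 called lower (11.1%, against 2.21%). Called higher was the phosphatase gene DUSP1 (0.53, edgeR adjusted p = 0.026), and called lower was CRISPLD2 (-1.13, adjusted p = 5.3e-04). This list had 0 called higher without ACM replicate 2 or UCM replicate 2 and 2 without ACM replicate 1, and 3 called lower without UCM replicate 1. The TGF-beta list of 10 tested genes held 1 called higher (10.0%, against 3.35% of all genes) and 0 called lower by edgeR. At an unadjusted p under 0.05, 1 was higher and 2 were lower, where 23.3% of all genes passed in either direction. DESeq2 called 1 higher and 2 lower, against 725 and 422 among all genes. Without UCM replicate 1, 1 was called lower. The gene called higher was LTBP2, a TGF-beta binding protein gene (0.76, adjusted p = 0.045), and the call was lost when any library but UCM replicate 1 was left out, and with protein-coding genes only. The part of any of these inducers in the rise of ANGPTL4 was not tested.

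The genes whose log2 CPM was most like that of ANGPTL4 over the 6 libraries, out of 13349 compared, were ZNF444, PCDHGA6, SESN2, RAB39B and RELA, each with a Pearson r of 0.997 or 0.998. The libraries form 2 groups that ANGPTL4 separates, so such values describe that separation first, and 309 genes reached an r of at least 0.95. SESN2, a stress-induced regulator of mTORC1, had a log2 FC of 0.96 (edgeR adjusted p = 0.0019), whereas RELA, an NF-κB subunit, had 0.18 (adjusted p = 0.11). Of these 5 genes, 2 (SESN2 and RAB39B) were also among the 5 most alike by TPM. By TPM, PCDHGA6 ranked 14 (r of 0.993) and ZNF444 ranked 338 (r of 0.93). RELA had an r of only 0.44 by TPM and ranked 3224, so its likeness was found in counts and not per length.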

How the data were processed

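PolyA RNA of 6 BT-549 libraries (3 ACM, 3 UCM) was read in pairs. Per the labels, the authors used Trim Galore, STAR and RSEM with GRCh38 (named in the submitters' processing notes); versions, annotation and strand setting are not given in the sources used here. The values that the authors deposited per gene are the expected count of RSEM, unscaled, and TPM, scaled by effective length and library sum. A table of the authors' own comparison (log2 fold change, standard error, Wald score and p-values) was not used.

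Symbols and positions came from GENCODE 44 (62541 of 63140 identifiers). Expected counts were rounded and tested with edgeR 4.0.16 in R 4.3.3: filterByExpr (14451 genes), TMM, a robust quasi-likelihood fit on condition alone, and p-values adjusted by Benjamini-Hochberg over these genes. CPM is scaled by TMM library sizes. Calls are at an adjusted p at or below 0.05. The biological coefficient of variation was 0.115 with 3 libraries a group, and the fit was tested on simulated data. Alternatives were DESeq2 1.42.0, limma 3.58.1 on log2(TPM + 0.1) and log2(TPM + 1), other size factors and filters, glmTreat, protein-coding genes only, a replicate block and each library left out.

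All 8 members are named, with up to 4 genes of each list with the smallest adjusted p among those called, the 5 genes most like ANGPTL4, RXRG and check genes. Members and lists, typed by hand, were chosen with earlier results of these data known. All replicate pairs differed beyond sampling noise, but not equally. The chi-square per degree of freedom of their counts was 2.35 for UCM replicates 2 and 3 and 13.2 to 21.4 for the other pairs. Protein sequences were not used here.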

Additional observations from a re-analysis of the deposited data

How the results depend on the processing

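ANGPTL4 was called higher in 17 of 18 alternatives, with a log2 FC of 2.92 to 3.37 (2.92 to 3.37 with 1 library left out), and missed the threshold at 3.37 (adjusted p = 0.054) with replicate 1 of both conditions left out, an alternative chosen after seeing the data. With the replicate number as a block, PPARA (0.49, adjusted p = 0.040), PPARD (0.27, 0.0499) and RXRB (0.28, 0.047) passed and genes called numbered 909 higher and 703 lower. Whether the numbers pair the samples is not stated in the sources used here. Deviations of same-numbered libraries correlated at 0.30, 0.035 and 0.16, and those of libraries with different numbers at -0.30 to 0.18. With replicate 1 of both conditions left out, PPARD passed at 0.34 (adjusted p = 0.031), RXRA turned to -0.083, 1017 genes were higher and 726 lower, and 2 PPAR targets were lower. With 1 library left out, PPARD ranged from 0.23 to 0.34, RXRA from -0.074 to 0.091, PPARGC1B from -0.25 to 0.11, genes higher from 125 (without UCM replicate 2) to 738 (without UCM replicate 1), genes lower from 62 (without UCM replicate 3) to 572 (without UCM replicate 1), PPAR targets higher from 3 to 7 and lower from 0 to 1. Against 484 higher and 320 lower genes, a filter of 1 count gave 1045 and 679, glmTreat against a log2 FC of 0.58 gave 10 and 9 (0 and 0 PPAR targets), and limma gave 234 and 138 on log2(TPM + 0.1) and 230 and 132 on log2(TPM + 1), with 0 PPAR targets lower in both. DESeq2 called 725 genes higher and 422 lower. Without ACM replicates 1, 2 and 3 in turn, 415, 197 and 320 genes were higher and 206, 87 and 190 lower. Without UCM replicates 1, 2 and 3 in turn, 738, 125 and 156 were higher and 572, 70 and 62 lower. Hypoxia genes called higher numbered 0 to 10 over the alternatives. Of the 5 genes most like ANGPTL4, 2 remained by TPM and 2 by Spearman rho. The causes were not tested. Depth limits PPARGC1A, RXRG and LPL, where 3 counts are 0.142 to 0.175 CPM.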
